A study of Mus musculus with 2 samples.

Results

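The genes described are 45 antioxidant, NRF2 pathway, iron and ferroptosis genes of the mouse, a fixed list of names. The list was chosen with earlier results of these data known. All 45 were found among 21883 coding genes of RefSeq records on chromosomes 1 to 19, X and Y (GRCm38.p6, the assembly that mm10 names). They were scored in the 1 deposited list of peaks for Nr4a2, a nuclear receptor also called Nurr1 with no settled ligand, in BV2 cells, an immortalised line of mouse microglia. The list rests on 1 immunoprecipitated library and 1 input library of DNA that was not precipitated, so no value below carries a measure of variation between cultures. Both library names in the file header include H2O2. A treatment is not stated in the labels, and no untreated library was analysed here. Neither genotype nor time is given in the labels, and a peak list measures no expression, so the microglial identity of the line could not be checked against marker genes.

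Cells meet oxidants with layers of defence. NRF2, the product of Nfe2l2, is held low by KEAP1 through a CUL3 and RBX1 ubiquitin ligase. When KEAP1 is modified by oxidants, NRF2 persists and activates genes with antioxidant response elements, while BACH1 represses many of the same genes. The targets make and recycle glutathione, feed the thioredoxin and peroxiredoxin cycle, and store or export iron, which otherwise drives the lipid peroxidation of ferroptosis. Microglia also make superoxide with an NADPH oxidase.

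A gene-end peak, meaning a summit within 1000 bp of either end of the gene record, was found at 2 of the 45 genes, Gpx3 and Nfe2l2. That is 4.44% (exact 95% interval 0.543 to 15.1), against 2.36% of all coding genes. A summit inside the gene was found in 5, Bach1, Aifm2, Slc11a2, Txnrd2 and Cybb, or 11.1% (3.71 to 24.1) against 11.6%. As the coding gene whose end lies nearest to a peak, 10 of the 45 were listed, or 22.2% (11.2 to 37.1) against 21.1%. These shares lie near those of all coding genes, and the intervals, which cover counting error only, include them. In all, 11 genes had a peak of at least 1 of these kinds, 13 peaks in total, and 34 had none.

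The comparison was also made with genes of like setting, since a gene with more room around it collects more peaks. Territory is the length of sequence that lies closer to the ends of that gene than to those of any other coding gene, and local density is the number of peaks in the gene's 5 Mb bin. Among other coding genes in the same decile of territory and of local density, the shares summed to 8.89 genes for the nearest-gene count, against 10 observed. For gene-end peaks the sum was 1.26 against 2 observed. With gene length in place of territory it was 3.55 for inside peaks, against 5 observed. These sums are a description of this list and carry no test.

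**Figure D1:**
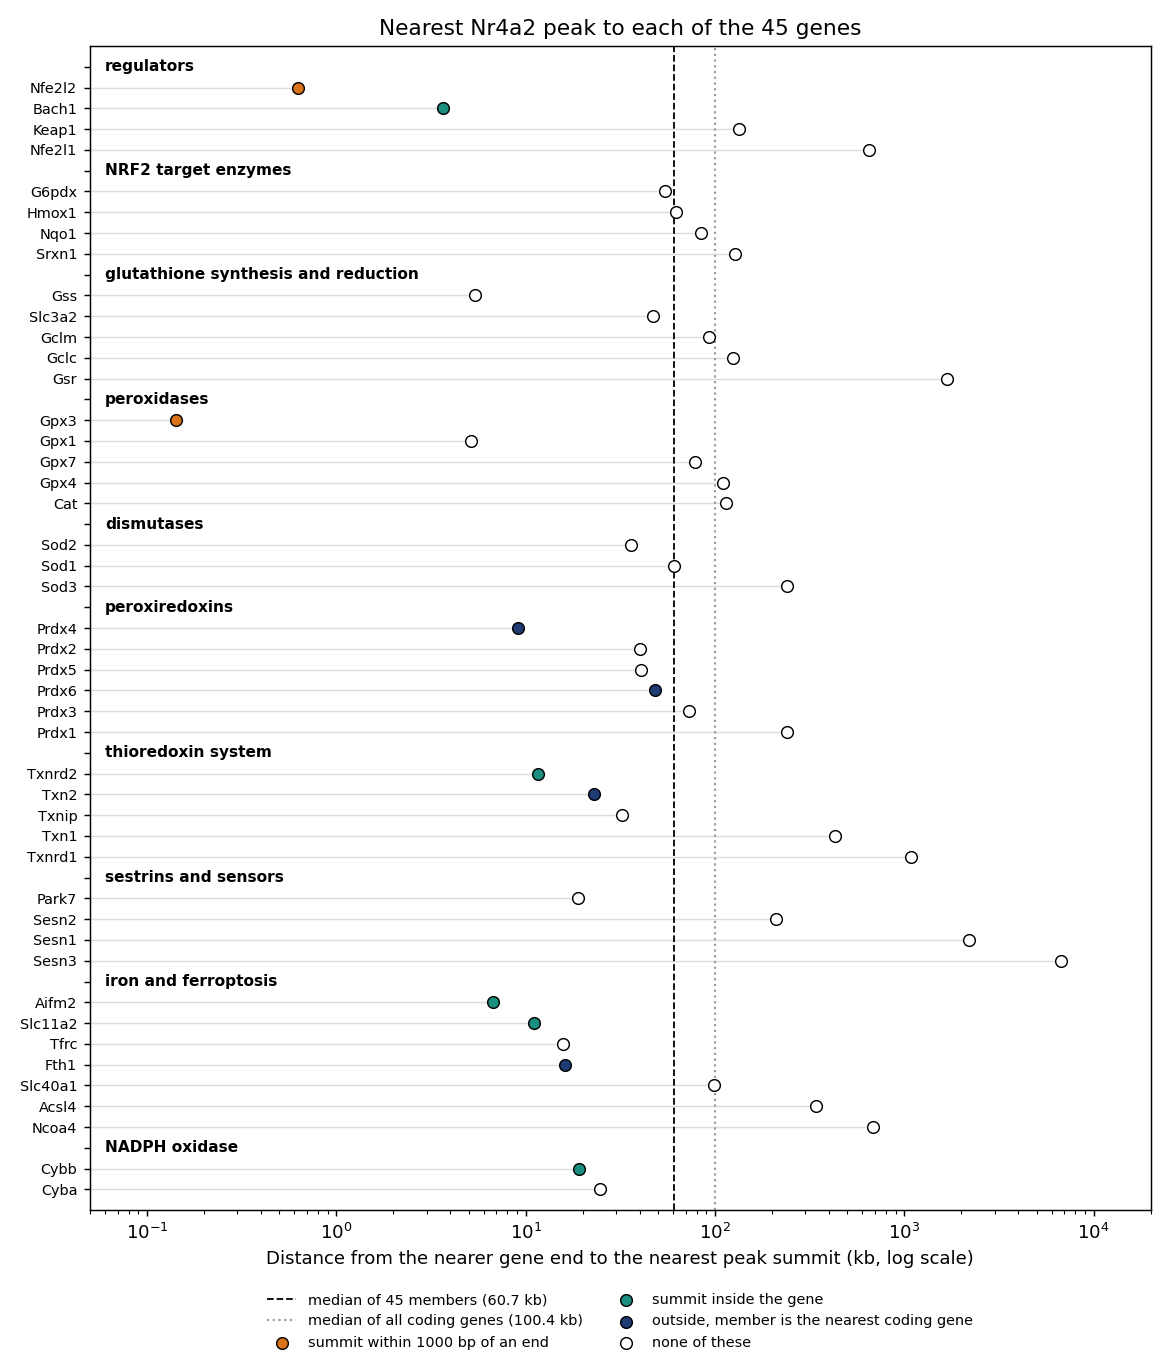
Distance in kb (log scale) from the nearer end of each of the 45 genes to the nearest peak summit, by role, with colours for the kind of peak and lines at the medians of the 45 genes and of all coding genes. Gpx3 at 0.143 kb and Nfe2l2 at 0.624 kb are the only points below 1 kb, and Sesn3 at 6769 kb is the farthest.

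Gpx3 encodes the secreted glutathione peroxidase of plasma and extracellular fluid, and it had the closest peak of all 45 genes. The peak lay at chr11:54902584-54902747 on mm10, with its summit 143 bp upstream of the gene's RefSeq start on the plus strand, and touched no other gene record's end. Its summit held 10 tags (exact Poisson 95% interval 4.80 to 18.4) over a background of 1.79 tags, a fold enrichment of 3.95. The authors' −log10 q was 1.39, so q was below 0.05. Of all coding genes, 0.434% had a summit as near to an end or nearer. This share belongs to the smallest distance of the 45 genes, so it is a selected value. A further peak lay within 100 kb of the gene, 10 tags high.

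The peak over Gpx3 covered part of the RefSeq promoter window, which runs from 250 bases before the start to 50 after it. A promoter was found for 38 of the 45 genes, 52 windows in all, and none for Gclc, Gsr, Hmox1, Prdx6, Slc11a2, Slc40a1 and Sod3. Gpx3 was the only one of the 38 with a peak over its window, where 0.64% of coding genes with a promoter had one. Of a second list of 83 other pathway genes, described below, 66 had a promoter. Among these 66, only Rbx1, a subunit of the NRF2 ligase, had a peak over its window, or 1.52% against the same 0.64%. Both windows are shown because they hold the bases under a peak. Capitals mark the bases inside the deposited peak, 144 of 300 at Gpx3 (chr11:54902604-54902903, plus strand) and 149 of 300 at Rbx1 (chr15:81466066-81466365, plus strand), written 5′ to 3′ on GRCm38.p6.
Gpx3: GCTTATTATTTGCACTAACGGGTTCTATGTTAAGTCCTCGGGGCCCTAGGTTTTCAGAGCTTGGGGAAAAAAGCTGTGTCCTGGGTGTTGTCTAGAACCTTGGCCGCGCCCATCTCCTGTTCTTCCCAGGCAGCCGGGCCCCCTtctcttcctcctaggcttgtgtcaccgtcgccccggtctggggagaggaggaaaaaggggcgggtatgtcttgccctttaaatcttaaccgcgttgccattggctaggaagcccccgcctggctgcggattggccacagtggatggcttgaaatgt
Rbx1: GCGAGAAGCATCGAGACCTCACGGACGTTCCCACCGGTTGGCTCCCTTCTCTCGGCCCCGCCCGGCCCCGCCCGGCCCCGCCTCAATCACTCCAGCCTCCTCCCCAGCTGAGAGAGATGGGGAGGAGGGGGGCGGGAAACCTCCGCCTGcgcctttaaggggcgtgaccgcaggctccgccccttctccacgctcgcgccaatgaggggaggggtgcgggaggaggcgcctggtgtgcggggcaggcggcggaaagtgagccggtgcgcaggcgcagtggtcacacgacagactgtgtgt

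Neither of these windows held any of the 5 words searched on both strands. They were AAAGGTCA, the monomer site of the Nr4a receptors known as NBRE, TGACNNNGC, the core of the antioxidant response element, its looser form TGANNNNGC, which includes every match of the former, TGAGTCA, the AP-1 word, and CACGTG, the E-box. G and C made up 56.3% of the Gpx3 window and 70.7% of that of Rbx1, against a median of 63.3% over the 52 windows and 52.7% over all 32851 promoters.

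Nfe2l2 encodes NRF2 itself. Its peak lay at chr2:75705185-75705348, with the summit 624 bp upstream of the start on the minus strand and outside the promoter window. The summit held 9 tags (exact Poisson 95% interval 4.12 to 17.1) over a background of 1.79, a fold of 3.59, and the −log10 q of 1.08 leaves q above 0.05. Of all placed peaks, 80.1% were as tall or taller. The promoter of Nfe2l2 is shown because it holds 1 match to the antioxidant response element core, in capitals, starting 240 bases before the start (chr2:75704614-75704913, minus strand, GRCm38.p6).
Nfe2l2: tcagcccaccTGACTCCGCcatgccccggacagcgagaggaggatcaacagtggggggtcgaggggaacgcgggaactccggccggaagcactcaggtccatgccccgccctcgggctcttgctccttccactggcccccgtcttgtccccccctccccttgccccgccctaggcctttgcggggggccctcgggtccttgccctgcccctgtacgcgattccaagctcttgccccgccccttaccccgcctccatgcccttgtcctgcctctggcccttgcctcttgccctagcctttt

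The antioxidant core was found in 9 of the 52 promoter windows, each of a different gene. That is 17.3% (exact 95% interval 8.23 to 30.3), against 12.4% of all promoters. The windows cover 38 of the 45 genes, and Hmox1, Gclc and Gsr are among those without one. Sequence outside the windows was not searched. The genes were G6pdx, Gclm, Ncoa4, Nfe2l2, Prdx1, Sesn2, Sod1, Srxn1 and Txnrd1. The looser form was in 42.3% of the windows and 41.3% of all promoters. The Nr4a monomer word was in 0 of 52 (upper limit 6.85%), where 1.51% of all promoters held it. AP-1 was in 2 of 52 against 5.20%, and the E-box in 1 of 52 against 7.15%. Windows of a gene can overlap, as at Nfe2l1, where the same match to the looser form falls in several windows and is counted in each. Windows are therefore not independent, and a match is a description of letters and not a bound site.

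**Figure D2:**
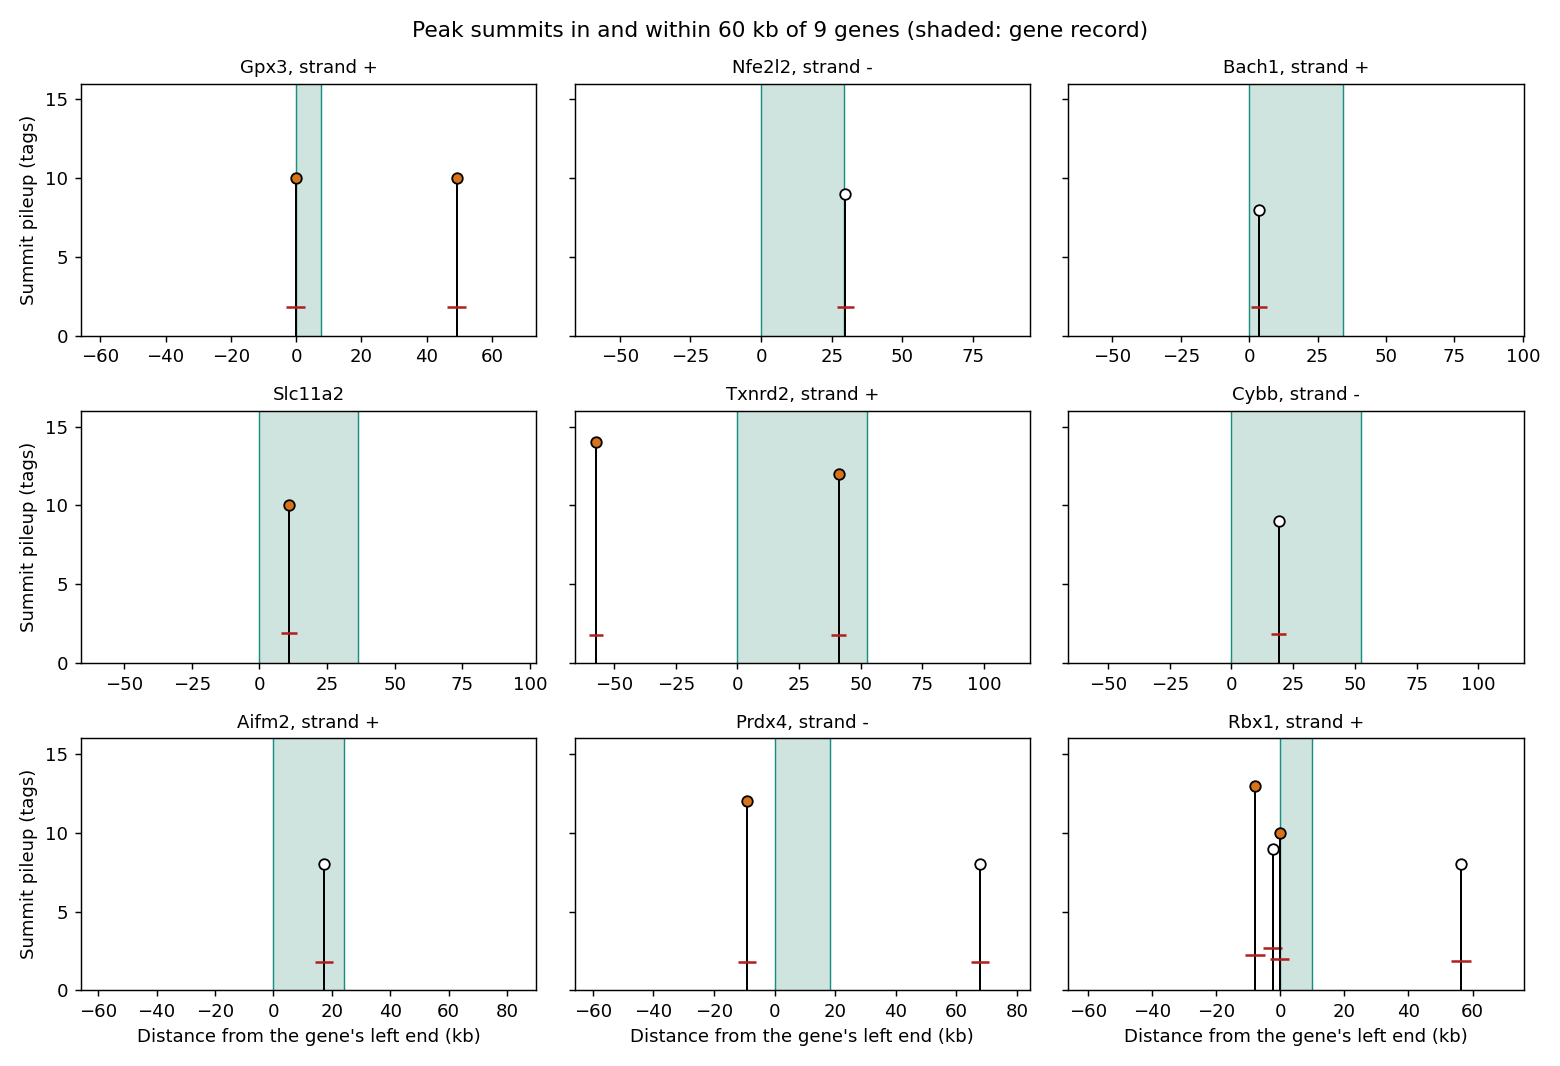
Summit pileup in tags against distance in kb from the left end of the gene record for 9 genes, with the record shaded, filled circles for peaks with q of at most 0.05, open circles for the rest, and short lines for the background of each peak. The summits of Gpx3 and Nfe2l2 lie just outside the gene's end, those in Bach1, Slc11a2, Txnrd2, Cybb and Aifm2 lie within the shading, and 3 of the 4 peaks of Rbx1 lie to its left.

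Of the other regulators, Bach1, which encodes the haem-sensing repressor that competes with NRF2, had a summit inside the gene 3.68 kb after its start, at chr16:87702504-87702667. This peak was at the low end of the list, with 8 tags (3.45 to 15.8), a fold of 3.23 and a −log10 q of 0.76. Keap1, the sensor that holds NRF2 low, was 134 kb from its nearest summit. Nfe2l1, which encodes a related factor known for proteasome genes, was 653 kb from one. The pair of regulators with a near summit therefore had peaks with q above 0.05, and the other pair had no summit within 100 kb.

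None of the 4 enzymes grouped as classic NRF2 targets had a peak at an end, inside or nearest. Over all coding genes these shares were 2.36%, 11.6% and 21.1%. A group of 4 is too small to set an absence against them, and the same limit holds for the other role groups. G6pdx, which supplies NADPH, was 54.2 kb from a summit, Hmox1, the haem oxygenase gene, 62.1 kb, Nqo1, the quinone reductase gene, 84.9 kb, and Srxn1, the sulfiredoxin gene, 127 kb. The summit nearest to Hmox1 lay inside Hmgxb4, 0.416 kb from the end of that gene.

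The 5 genes of glutathione synthesis and reduction likewise had none, again too few to set against those shares. Gss, the glutathione synthetase gene, was 5.40 kb from a summit of 9 tags, but that summit lay inside its neighbour Acss2. Slc3a2, the heavy chain that pairs with the cystine transporter, was 47.0 kb from the tallest of the nearest peaks, with 14 tags, a fold of 5.38 and a −log10 q of 3.27, which lay nearer to Chrm1. Gclm and Gclc, the subunits of glutamate cysteine ligase, were 93.5 and 125 kb away, and Gsr, the glutathione reductase gene, 1693 kb. Only the first pair of these 5 genes thus had a summit within 50 kb, and each belonged to a neighbour.

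The peroxidases other than Gpx3 had no peak of their own. Gpx1, the main cytosolic glutathione peroxidase gene, was 5.13 kb from a summit of 10 tags inside Rhoa. Gpx7, whose product acts in the endoplasmic reticulum, was 79.0 kb away, Gpx4, the phospholipid peroxidase that restrains ferroptosis, 109.8 kb, and Cat, the catalase gene, 114 kb. The superoxide dismutase genes had no peak of their own either, with the nearest summit at 36.0 kb for mitochondrial Sod2, 60.7 kb for cytosolic Sod1 and 239.8 kb for extracellular Sod3.

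Peroxiredoxins reduce peroxides with thioredoxin, and 2 of the 6 were the nearest coding gene of a peak, where 21.1% of all coding genes were. Prdx4, the member of the endoplasmic reticulum, had one of 12 tags (6.20 to 21.0) and 4.67-fold at chrX:155314727-155314890, 9.12 kb beyond its 3′ end, with a −log10 q of 2.18. It was also nearest to a weaker one of 8 tags, 49.5 kb away, inside the record Gm39545. Prdx6, which also has phospholipase activity, was nearest to a peak of 12 tags and 4.67-fold 48.4 kb away, at chr1:161299549-161299716, again with a −log10 q of 2.18. Of coding genes on that chromosome, 53.7% had a summit as near to an end or nearer, and of all coding genes 34.3%. Prdx2, Prdx5, Prdx3 and Prdx1 were 40.0, 40.6, 73.3 and 240 kb from summits that lay nearer to other genes.

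In the thioredoxin system, 2 of 5 genes were the nearest coding gene of a peak, where 21.1% of all coding genes were. They were the mitochondrial members, a trait picked out after the values were seen and a description of 2 genes only. Mitochondrial Sod2, of the dismutases, had no peak of its own. Txnrd2, the mitochondrial thioredoxin reductase gene, had a summit inside the gene, 11.6 kb from its 3′ end, at chr16:18467335-18467549. It held 12 tags (6.20 to 21.0), 4.67-fold over background, with a −log10 q of 2.18, and 10.1% of all placed peaks had a fold as high. Txn2, the mitochondrial thioredoxin gene, was nearest to a peak of 9 tags and 3.27-fold, 23.1 kb beyond its 3′ end, with q above 0.05 (−log10 q of 0.966). Their cytosolic counterparts Txn1 and Txnrd1 were 429.7 and 1082 kb from a summit. Local density differed as well. Txn1 and Txnrd1 lie in 5 Mb bins with 2 and 4 peaks, and Txn2 and Txnrd2 in bins with 36 and 20. Txnip, which encodes an inhibitor of thioredoxin, was 32.3 kb from a summit of 11 tags that lay 0.53 kb from an end of Hjv, a regulator of hepcidin in iron balance.

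The sestrins, stress-induced regulators of growth signalling, included the farthest genes of the list from any summit, Sesn3 and Sesn1. Sesn2 was 211 kb away, Sesn1 2205 kb and Sesn3 6769 kb, with 8492 kb free of summits on its other side. Park7, which encodes the oxidant-sensing protein DJ-1, was 18.9 kb from a summit of 8 tags that lay nearer to Errfi1.

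Of the iron and ferroptosis genes, 2 of 7 had a summit inside, where 11.6% of all coding genes had one. Slc11a2, the importer of ferrous iron, had one of 10 tags (4.80 to 18.4) and 3.78-fold at chr15:100398831-100399097, 11.0 kb from an end, with q below 0.05 (−log10 q of 1.39). Aifm2, which encodes the ferroptosis suppressor FSP1, had one of 8 tags and 3.23-fold at chr10:61732385-61732548, with q above 0.05 (−log10 q of 0.76), on a chromosome with only 0.455 peaks per Mb. By gene end that summit was slightly nearer to Macroh2a2, at 6.12 kb against 6.74 kb to Aifm2.

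Iron storage was represented by Fth1, the ferritin heavy chain gene, which was the nearest coding gene of 2 peaks upstream of it. One lay 16.1 kb away with 11 tags and 3.23-fold, over a background of 2.71 tags (−log10 q of 1.08), and one 21.4 kb away with 10 tags and 3.92-fold (−log10 q of 1.39). When all records other than pseudogenes competed, Fth1 was no longer the nearest gene of any peak. Tfrc, the transferrin receptor gene, was 15.8 kb from a summit inside Tnk2. Slc40a1, the iron exporter gene, was 98.4 kb from a summit, Acsl4, which makes lipids prone to peroxidation, 342 kb, and Ncoa4, the ferritin autophagy receptor gene, 687 kb.

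Of the 2 membrane subunit genes of the phagocyte NADPH oxidase, Cybb had a summit inside the gene, where 11.6% of all coding genes had one. It held 9 tags (4.12 to 17.1) and was 3.56-fold at chrX:9454271-9454466, with q above 0.05 (−log10 q of 1.08). Cyba was 24.6 kb from a summit of 12 tags inside Zc3h18. Of all coding genes, 22.8% had a summit as near to an end or nearer, and of those on its chromosome 34.5%. Cyba lies in the bin richest in peaks among the 45 genes, with 53 in 5 Mb, and Cybb in one with 8.

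Of the 34 genes without a peak of their own, 18 had a summit within 100 kb and 16 had none. By the definition of this set, each nearest summit lay outside the gene and closer to the end of another coding gene. For 20 of these 34 genes it was inside another gene record. No like share over all coding genes is given here, so this count describes the list only. Examples chosen after the values were seen were Cirbp, 0.234 kb from the summit nearest to Gpx4, and Eif3a, 0.084 kb from that nearest to Prdx3.

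The 13 peaks were of ordinary height for this list. Their median pileup was 10 tags and their range 8 to 12, against a median of 10 and a range of 7 to 328 over all 7652 placed peaks. Median fold was 3.59 in both sets. A q of at most 0.05 was reached by 6 of the 13 (46.2%, exact 95% interval 19.2 to 74.9) and by 50.5% of all placed peaks. The 6 were those of Gpx3, Slc11a2, Txnrd2, Prdx4 and Prdx6 and the farther one of Fth1. None had 14 tags or more, a height reached by 5.19% of all placed peaks. Each peak was called because its pileup was high, so the Poisson intervals of the pileups describe counting error around selected values.

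**Figure D3:**
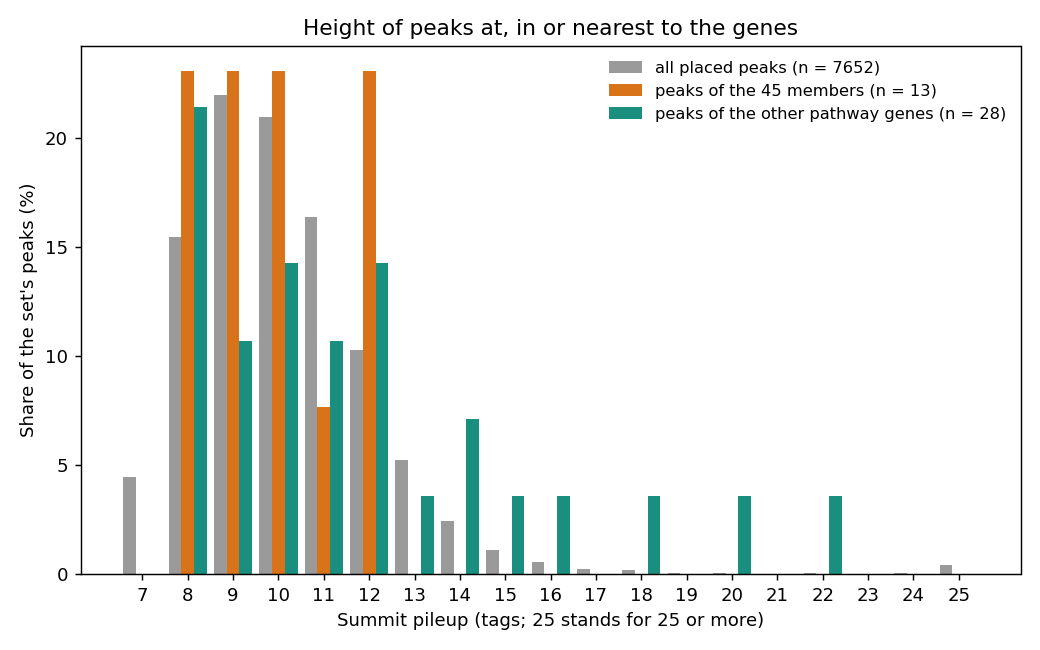
Share in % of each set's peaks by summit pileup in tags, for all placed peaks, the 13 peaks of the 45 genes and the 28 peaks of the other pathway genes. The 13 peaks lie between 8 and 12 tags, where most placed peaks lie, and the other pathway genes reach 22 tags.

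A summit inside the gene or within 100 kb of it was found for 29 of the 45 genes, or 64.4% (48.8 to 78.1), against 50.2% of all coding genes. The median distance from a gene end to the nearest summit was 60.7 kb, against 100.4 kb. The genes also lay in bins with more peaks, a median of 20 per 5 Mb against 14. In the same decile of gene length and local density, the shares of other coding genes summed to 25.7 of 45, against 29.

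Distance followed local density within the list as it did over all genes. The 29 genes in the denser part of the ranking of all coding genes by local density had a median distance of 40.0 kb, where all such coding genes had 44.3 kb. Of these 29, 24 had a summit within 100 kb, and so had 73.8% of all such coding genes. The other 16 had a median of 187 kb, against 288 kb, and 5 had a summit within 100 kb, as did 26.6% of all coding genes in that part. Txnrd1, Gsr, Sesn1 and Sesn3 had none within 1000 kb, 8.89% of the list against 9.93% of coding genes, and Gsr, Sesn1 and Sesn3 lay in bins without a single peak.

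**Figure D4:**
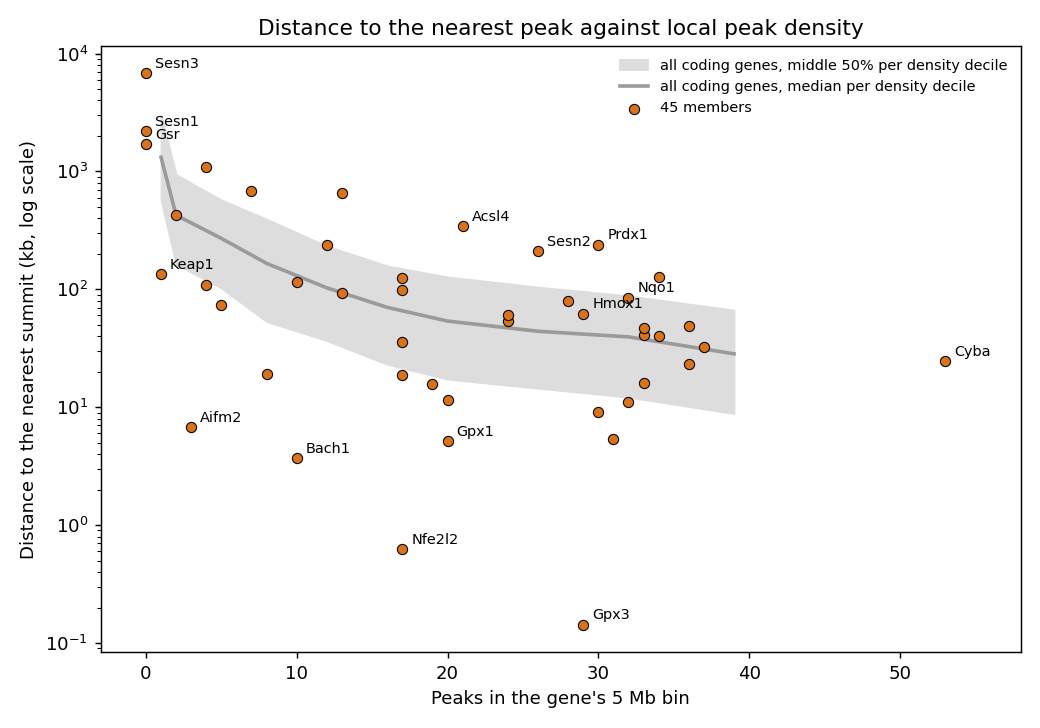
Distance in kb (log scale) to the nearest summit against the number of peaks in the gene's 5 Mb bin for the 45 genes, with the median and the middle 50% of all coding genes in each decile of local density. Gpx3, Nfe2l2, Bach1 and Aifm2 are among the points below the grey band, and Acsl4, Sesn2 and Prdx1 among those above it.

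Position relative to the gene could be read for the 38 genes with a strand. The summit nearest to a gene end was upstream in 14, inside in 4 and downstream in 20. This split has no counterpart over all coding genes here and describes the list only. Within 1000 bp of a RefSeq start, 2 of the 38 had a summit, again Gpx3 and Nfe2l2, or 5.26% (0.644 to 17.7), against 1.74% of coding genes with a start.

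The second list, 83 other genes of the same pathways, gave like shares. A gene-end peak was found at 2, Rbx1 and Flvcr1, or 2.41% (0.293 to 8.43) against 2.36% of all coding genes. An inside peak was found in 8 (9.64% against 11.6%), and 16 were the nearest coding gene of a peak (19.3% against 21.1%). Rbx1, the RING subunit of the ligase that degrades NRF2, had its peak 124 bp upstream of the start at chr15:81466029-81466214, with 10 tags, 3.66-fold and a −log10 q of 1.37. Flvcr1, known as a haem exporter, had one of 11 tags and 4.27-fold 839 bp beyond its 3′ end, at chr1:191004916-191005185.

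Genes with a summit inside included Glrx3, Mgst2, Alox15, Hfe and Heph. In Alox15, a lipoxygenase gene, there were 2, of 12 tags and 4.67-fold and of 8 tags and 3.23-fold. Gstp1, a glutathione transferase gene, had a peak of 12 tags and 4.37-fold 1.17 kb beyond its 3′ end, just outside the limit for a gene end. Its family holds closely similar copies, so reads there may be shared between them, which was not measured here. Steap3, Gstm1, Alox5, Mt2, Sqstm1 and Gch1 were nearest to a peak outside the gene. Of the 28 peaks of this list, 7 were nearest to the cystine transporter gene Slc7a11, and they included 5 of the 7 with 14 tags or more. Only 2 of them lay inside the gene or within 100 kb, and the farthest was 293 kb away. Their backgrounds were also high, at 2.63 to 4.52 tags. Folds ran from 2.72 to 4.94, against a median of 3.59 over all placed peaks. The tallest had 22 tags, 95.6 kb from the gene, and a fold of 4.17.

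Over both lists together, 128 genes, 4 had a gene-end peak (3.13%, 0.858 to 7.81, against 2.36% of all coding genes), 13 an inside peak (10.2% against 11.6%) and 26 were nearest to a peak (20.3% against 21.1%).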

How the data were processed

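Per the submitters' processing notes, reads were aligned with Bowtie2 to mm10, with MACS2 2.2.6 and ChIPseeker also listed. The header of the file gives MACS version 2.1.4 instead. Peaks were called on 1 ChIP library (20365794 tags after duplicate removal) against 1 input (22520884) at a p-value cutoff of 0.001, per the file headers, with 1 tag kept per position and a fragment length of 164 bp. The deposited pileup is a coverage signal, the number of extended tags at the summit. The deposited fold is the ratio of pileup to local background, each plus 1, and the background was recovered from it. The −log10 p and −log10 q were used as deposited, although by the header no q was to be computed. Peak width and positions in bp are the authors' values. Heights, folds and q-values are the authors' own and only describe peaks within this list.

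Of 7680 peaks, 7652 on chromosomes 1 to 19, X and Y were scored by summit against RefSeq gene records on GRCm38.p6, which give ends but not exons, so exons, introns and untranslated parts were not separated. Promoter windows, starts and strands came from a RefSeq table of the same build. Shares carry exact Clopper-Pearson and tag counts exact Poisson 95% intervals, for counting error only. With 1 library a side no test was run. The genes and lists were chosen with earlier results of these data known. Values in full are given for every gene with a peak at an end, inside or nearest. The scoring was tested on simulated data. Python 3.11.15, pandas 2.3.3, numpy 2.4.6 and scipy 1.17.1 were used. Alternatives were stricter q and fold limits, other windows, any base of the peak, and other rules for the nearest gene. The values of 1 gene of the second list are not reported here.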

Additional observations from a re-analysis of the deposited data

Results flagged for a closer look

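A signal outside the data used was the set of 28 peaks off chromosomes 1 to 19, X and Y, all called above the input and not assigned to any gene of the list.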

How the results depend on the processing

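With q of at most 0.05, the gene-end count fell from 2 to 1 (Gpx3 alone; 1.18% of all coding genes), the inside count from 5 to 2 (6.75%), the nearest-gene count from 10 to 6 (12.8%), and the median distance rose from 60.7 to 127 kb (211 kb over all coding genes). With a fold of at least 4 these were 0 (0.599% of all coding genes), 1 (4.02%), 3 (7.99%) and 329 kb (394 kb). The fall follows from fewer peaks, 3867 and 2166. A gene-end window of 500 bp gave 1 gene (1.38% of all) and one of 10000 bp gave 7 (12.5%). No count moved by over 1.5 times with any base of the peak, the start alone, or a window of 3000 bp. At 3000 bp the list stayed at 2 genes (4.44%), while the share over all coding genes rose from 2.36% to 5.12%. The other rules for the nearest gene gave 9 to 11 genes, where 15.1% to 21.1% of all coding genes were nearest to a peak. The median pileup stayed between 10 and 12 tags throughout. No paired analysis was possible because each group has 1 library and no test was run. With 8 to 12 tags a peak, single calls rest on few reads, and a gene without a peak is one where none was detectable at this depth.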
